A study of Danio rerio with 14 samples.

Results

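Overfeeding was compared with the regular diet in livers of wild-type (ahcy+/+) adult zebrafish. The comparison used 9 of the 14 arrays of the series, chosen by their titles: 5 arrays of overfed ahcy+/+ livers, numbered 2, 3, 4, 6 and 7, and 4 arrays of regular-diet ahcy+/+ livers, numbered 2, 5, 6 and 9. Values by array are given in that order throughout. Overfed fish lived for a month in 1 tank that was fed without limit, and regular-diet fish in 1 tank that got a usual ration. Each tank also held ahcy+/- fish, which carry 1 working copy of the gene for S-adenosylhomocysteine hydrolase. The ahcy+/+ fish of both diets carry no named allele, transgene or drug treatment. Livers were stored in RNAlater, and their RNA was measured on a 1-colour Affymetrix zebrafish array. Because each diet was 1 tank, diet and tank cannot be told apart. The labels give no sex and do not say whether an array holds the liver of 1 fish, so the p-values measure the spread between arrays within a tank. The array titled overfed 4 carries the number 5 in its description, and is called overfed array 4 here. Precision is limited by the number of arrays.

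The liver takes up dietary sugar, fat and amino acids from the portal blood, stores the surplus as glycogen and triglyceride, and secretes most plasma proteins. Excess food is known to change lipid and sterol synthesis, amino acid breakdown, protein folding in the secretory pathway and hormone signals in this organ. Prolyl hydroxylases of the EGLN family are the enzymes that mark hypoxia-inducible factors for breakdown when oxygen is present.

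Levels are the authors' log2 values, so a difference of 1 is a 2-fold change. Hepatocyte markers were high on every array: the mean over 17 genes was 12.87, 13.05, 13.08, 13.10 and 13.09 on the overfed arrays, against 12.86, 12.78, 12.92 and 12.44 on the regular arrays. The tissue label therefore matched its defining genes on all 9 arrays. Markers of organs next to the liver were present too. The mean over 21 intestine genes was 6.57, 6.55, 6.68, 6.38 and 6.54 on the overfed arrays, against 6.63, 8.35, 7.28 and 9.89 on the regular arrays. The mean over 16 exocrine pancreas genes was 8.75, 10.06, 10.40, 8.51 and 8.65 on the overfed arrays, against 8.72, 10.09, 9.83 and 12.29 on the regular arrays. Regular array 9 was the highest of the 9 arrays in both. It was also highest in vitellogenin, the yolk precursor that the liver makes under oestrogen: the mean of 3 probe sets was 9.28, 7.15, 6.65, 6.31 and 6.82 on the overfed arrays, against 5.47, 5.56, 5.37 and 13.90 on the regular arrays. The mean over 31 skeletal muscle genes was 6.11, 6.02, 6.19, 5.99 and 6.11 on the overfed arrays, against 6.33, 6.31, 6.24 and 6.25 on the regular arrays. The diets did not overlap in it, no member passed, and its part in the results below was not tested. On arrays of whole tissue, fewer cells of a type and less RNA per cell cannot be told apart.

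**Figure D1:**
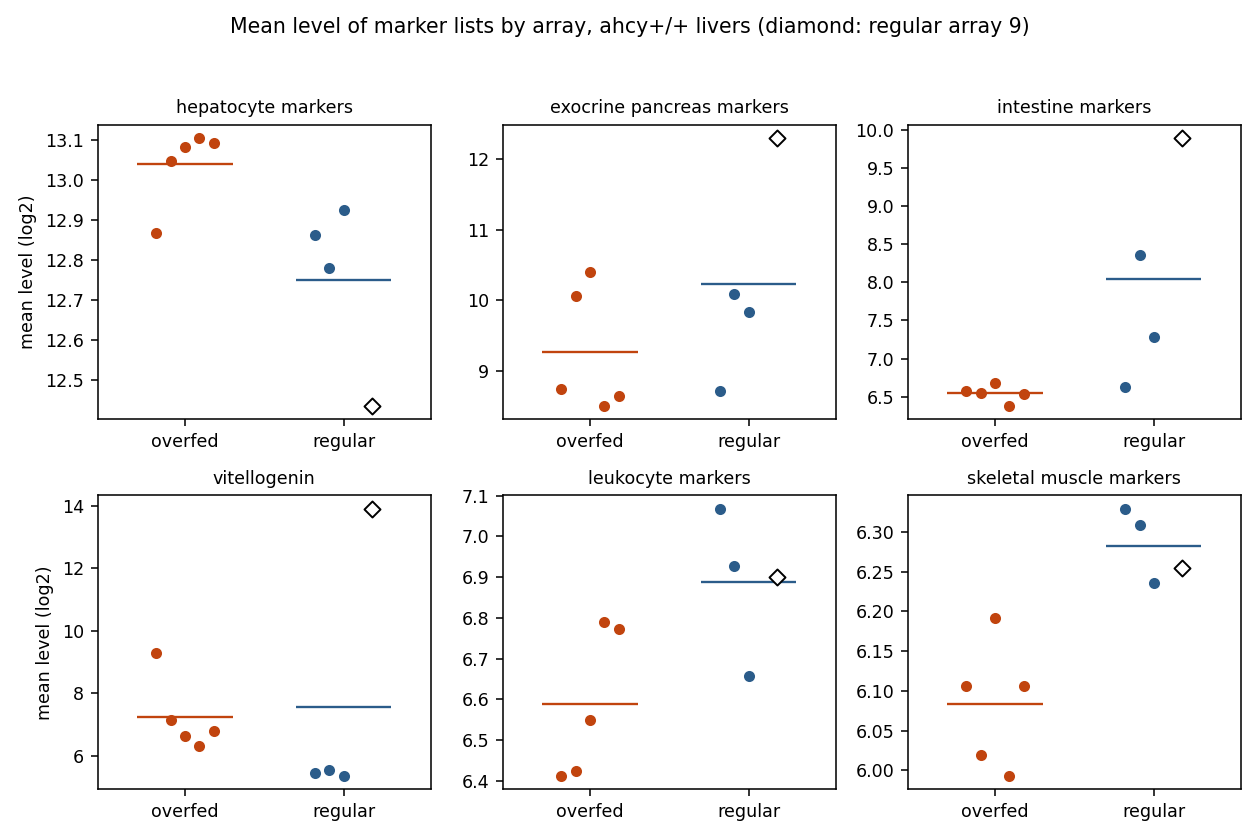
Mean log2 level of marker genes on each array (points) with the group mean (line), overfed left and regular right; the diamond is regular array 9. Regular array 9 stands at 12.44 for hepatocyte, 12.29 for exocrine pancreas and 9.89 for intestine markers and at 13.9 for vitellogenin.

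Of 15134 probe sets tested, 681 (4.5%) passed an adjusted p of 0.05 in limma: 465 (3.07%) were higher and 216 (1.43%) lower in overfed livers. Before adjustment 2980 (19.7%) had a p under 0.05. Centring the arrays on their medians gave 628 higher and 167 lower. Most of the differences that passed were small. The median size among higher probe sets was 0.79, or 1.73-fold, and 313 of the 465 (67.3%) were under 2-fold. Among lower probe sets it was 0.74, or 1.67-fold, and 154 of the 216 (71.3%) were under 2-fold. Only 26 higher and 10 lower probe sets reached 4-fold. Every overfed array lay beyond every regular array for 409 of the higher and 189 of the lower ones, against 719 (4.75%) and 594 (3.92%) of all tested probe sets. Of the 681, 198 also passed in all 9 fits that left out 1 of the 9 arrays, 147 of them higher and 51 lower. Counted by gene, with 1 probe set each, 307 of 8699 genes (3.53%) were higher and 142 (1.63%) lower, 5.16% in all.

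Regular array 9 stood apart from the other regular arrays. It lay at least 2-fold from the mean of the other 3 for 1345 probe sets (8.89%), 707 above and 638 below. The same count was 391, 198 and 267 for regular arrays 2, 5 and 6, and between 177 and 313 for the overfed arrays. Of the 1345, 49 were among the 681 that passed, which were 4.5% of all tested probe sets. The deviation of array 9 adds to the spread in the same fit, so the 49 are set in part by choice. Leaving the array out raised the number that passed to 1341 (8.86%), of which 715 (4.72%) were higher and 626 (4.14%) lower. The opposite held for the other regular arrays: without array 2, 5 or 6 the number was 264, 300 or 335. Without overfed array 2, 3, 4, 6 or 7 it was 520, 624, 391, 253 or 628. The median residual SD of a probe set was 0.203 without regular array 9 and 0.226 with all arrays. Of the 681 probe sets, those that no longer passed numbered 205, 172, 305, 430 and 159 without overfed array 2, 3, 4, 6 or 7, and 433, 390, 366 and 53 without regular array 2, 5, 6 or 9. Where a gene is said below to fail in some of the 9 fits, the array named is the one whose absence gave the highest adjusted p.

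**Figure D2:**
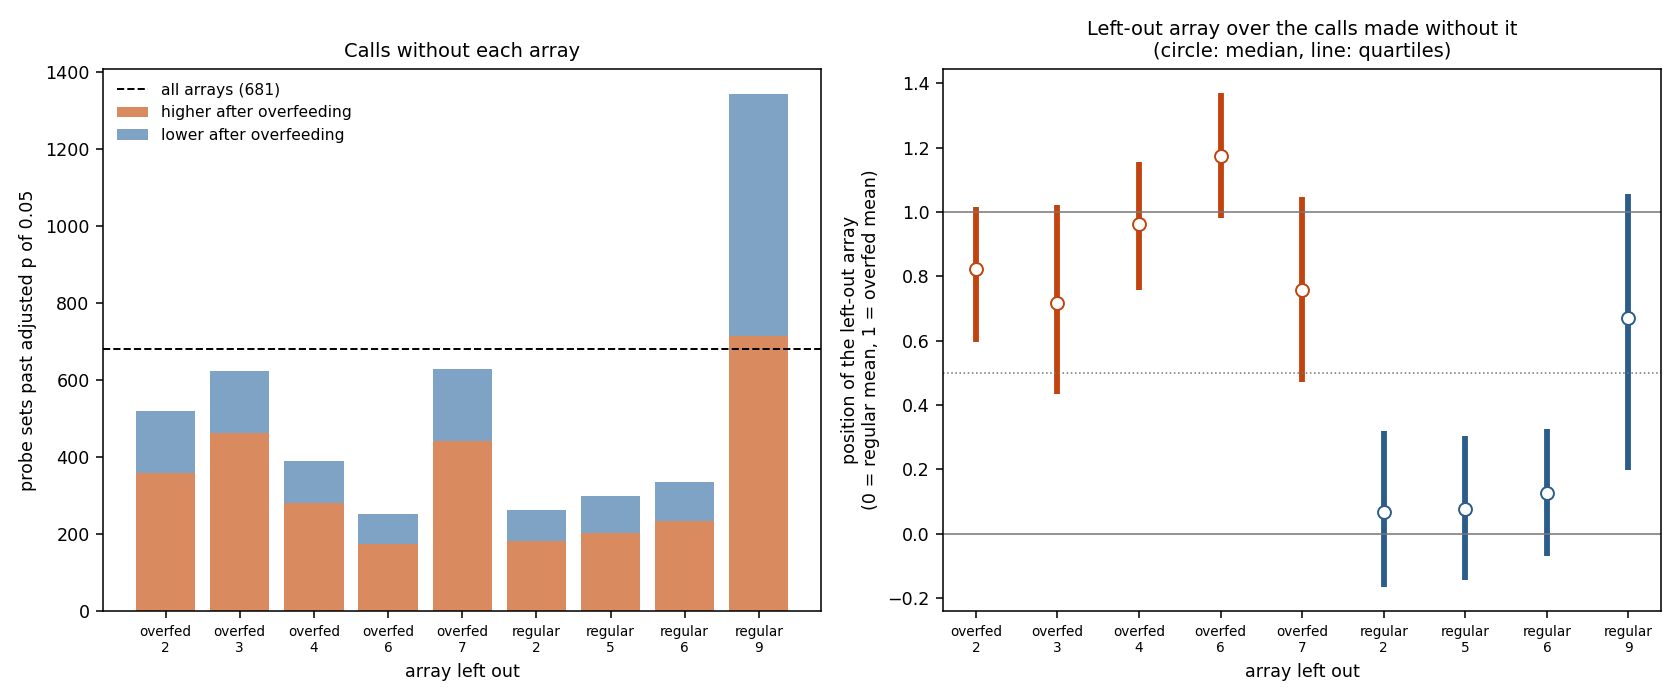
Left, number of probe sets past an adjusted p of 0.05 when the array named below is left out, split by direction, with the count for all arrays (681) as a dashed line. Right, where the left-out array lies for the probe sets called without it, as median and quartiles, on a scale on which 0 is the mean of the other regular arrays and 1 the mean of the overfed arrays. Regular array 9 has a median of 0.669, which is set in part by the choice of those probe sets.

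Most of what passed with all arrays also passed without array 9. Of the 681 probe sets, 628 (92.2%) passed without it as well, 53 did not (37 higher and 16 lower), and no sign turned. Being picked with array 9 in the fit, the 681 hold without it in part by choice. The median shift of their log2 differences was 8.71% in size and the largest 34.1%. The difference was larger without the array for 405 and smaller for 275. A further 713 probe sets were called only without the array, 287 higher and 426 lower. Being picked for passing only in that fit, they had larger differences there by choice: their median size was 0.69 without the array and 0.50 with it, their median SE 0.155 and 0.195, and 711 of the 713 had the same sign in both fits. Of these, 268 had an adjusted p under 0.1 with all arrays.

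**Figure D3:**
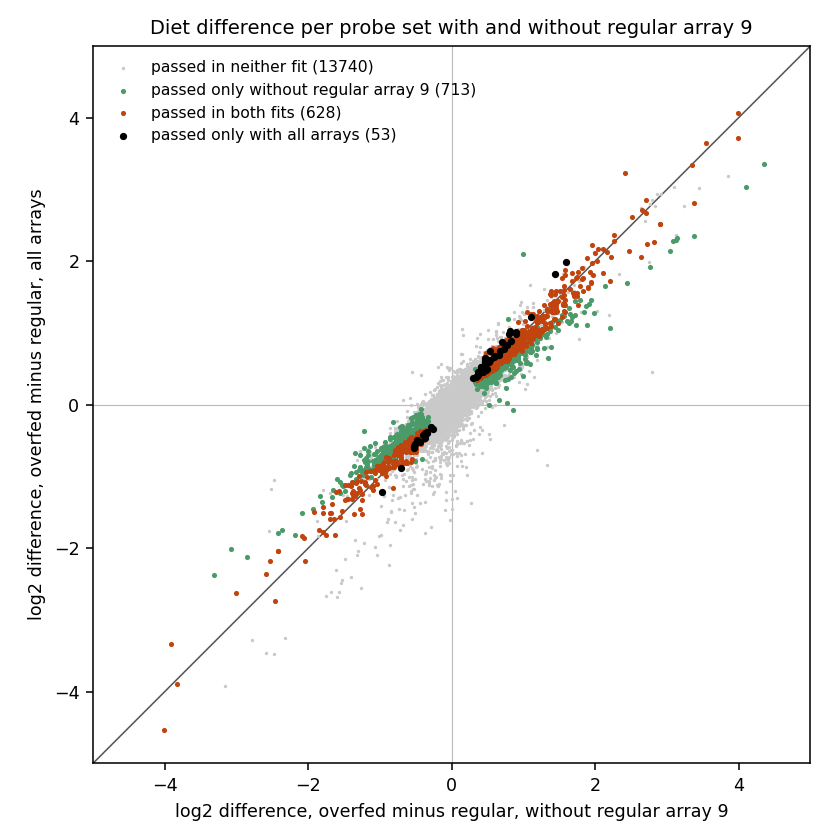
Log2 difference (overfed minus regular) of each tested probe set with all arrays (vertical) against the value without regular array 9 (horizontal), coloured by the fit in which it passed; the line marks equal values. The 628 probe sets that passed in both lie near the line; the side on which the 713 lie follows from how they were picked.

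For each fit that left out an array, the level of that array was placed on a scale from 0, the mean of the remaining regular arrays, to 1, the mean of the overfed arrays, over the probe sets called without it. Regular arrays 2, 5 and 6 had median positions of 0.068, 0.078 and 0.128, and the overfed arrays lay between 0.718 and 1.18. Regular array 9 had a median of 0.669 with quartiles of 0.199 and 1.05, and 59.7% of the 1341 probe sets lay past the midpoint. Over the 1341, its median was 0.465 for higher and 0.883 for lower probe sets. The choice of probe sets sets this position in part. The median of array 9 was 0.169 over the 628 that passed in both fits and 1.02 over the 713 called only without it. Regular arrays 2, 5 and 6 were placed over other, smaller sets, called with array 9 in the fit. The arrays of ahcy+/- livers entered this contrast through the shared estimate of spread and the low-value filter. Over the same 1341 probe sets they lay at 0.907 and 0.983 after overfeeding, against 0.023, 0.189 and 0.432 on the regular diet. How far oestrogen state or neighbouring tissue moves the position of array 9 was not tested.

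The hypoxia list held 38 measured genes, of which 8 (21.1%) were higher and none lower, against 3.53% and 1.63% of all genes. Those shares, 5.16% in all, are the background for the count of every list below with all arrays. Without regular array 9 the hypoxia list had 11 higher and none lower, against 5.45% and 4.89% of all genes. Those shares, 10.3% in all, are the background for list counts below in the fit without that array. The median log2 difference was 0.33, against -0.03 for all genes. Of the 38, 28 had a positive and 10 a negative difference, and 30 did not pass, vegfaa (0.05) and pgk1 (0.24) among them. This list and those below were chosen with earlier results of these data known. Enzymes that hydroxylate the hypoxia-inducible factor were among the 8. For egln3, the level was 10.32, 10.88, 11.35, 11.53 and 10.28 on the overfed arrays, against 7.60, 6.75, 6.32 and 7.96 on the regular arrays. All overfed arrays were above all regular arrays, array 9 included. For egln1b, from the same enzyme family, it was 9.08, 9.85, 9.01, 8.92 and 8.46 on the overfed arrays, against 7.49, 7.28, 7.69 and 6.56 on the regular arrays, again without overlap. The difference was 1.81 ± 0.31 (log2 difference ± SE here and below; adjusted p = 0.00982). The asparaginyl hydroxylase gene hif1an, whose product blocks the factor's coactivator contact, stood at 7.90, 8.08, 7.82, 7.92 and 6.89 on the overfed arrays, against 5.72, 5.81, 5.75 and 5.72 on the regular arrays. The groups were apart and overfed array 7 was the low one of its group. This difference was 1.97 ± 0.21 (adjusted p = 0.00081).

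Collagen-modifying enzymes of the hypoxia list moved in the same direction. The collagen prolyl hydroxylase gene p4ha1b had levels of 9.41, 9.34, 9.57, 9.61 and 8.80 on the overfed arrays, against 7.59, 6.83, 7.12 and 7.32 on the regular arrays. The lysyl hydroxylase gene plod1a had levels of 6.88, 7.09, 6.93, 7.31 and 6.98 on the overfed arrays, against 5.90, 5.92, 5.89 and 6.19 on the regular arrays. Neither gene showed an overlap between the diets, and array 9 was the highest regular array for plod1a only. The difference of plod1a was 1.06 ± 0.12 (adjusted p = 0.00081), and p4ha1b, egln3, egln1b, hif1an and plod1a all passed in each of the 9 fits that left out an array. So did the mTOR inhibitor gene ddit4, with levels of 9.09, 9.35, 11.38, 11.04 and 9.48 on the overfed arrays, against 5.55, 6.15, 6.53 and 5.76 on the regular arrays. Of the 8, the mitophagy receptor gene bnip3lb (0.84 ± 0.18, adjusted p = 0.0193) lost its call without overfed array 6 or regular array 2 or 5. Its highest adjusted p was 0.0627 without regular array 2, and another bnip3lb probe set differed by -0.05 (adjusted p = 0.868). The mitochondrial gene higd1a (1.82 ± 0.48, adjusted p = 0.0482) lost its call in 7 of the 9 fits, regular array 9 included. It reached at most 0.125 without overfed array 6. Another higd1a probe set passed with all arrays (1.35, adjusted p = 0.0406) and without array 9 (1.46, adjusted p = 0.031).

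The lipase inhibitor gene angptl4 shows the other way in which regular array 9 acted on this list. Its level was 10.44, 10.93, 9.82, 10.60 and 8.85 on the overfed arrays, against 5.93, 5.92, 6.20 and 10.35 on the regular arrays. Array 9 lay within the overfed range and the other regular arrays far below it. The difference did not pass with all arrays (3.03 ± 0.98, adjusted p = 0.1) and did without array 9 (4.11, adjusted p = 0.009). The oxygen-regulated subunit gene epas1a (0.57, adjusted p = 0.196) and the oxidoreductase gene ero1a (0.60, adjusted p = 0.127) behaved likewise, at 0.82 (adjusted p = 0.0192) and 0.77 (adjusted p = 0.0345) without it. The erythropoietin gene epoa, which had not passed either (1.19, adjusted p = 0.0568), had a smaller difference without the array (0.78, adjusted p = 0.0442). Over the 11 members called without array 9, its median position was 0.07, near the regular mean.

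**Figure D4:**
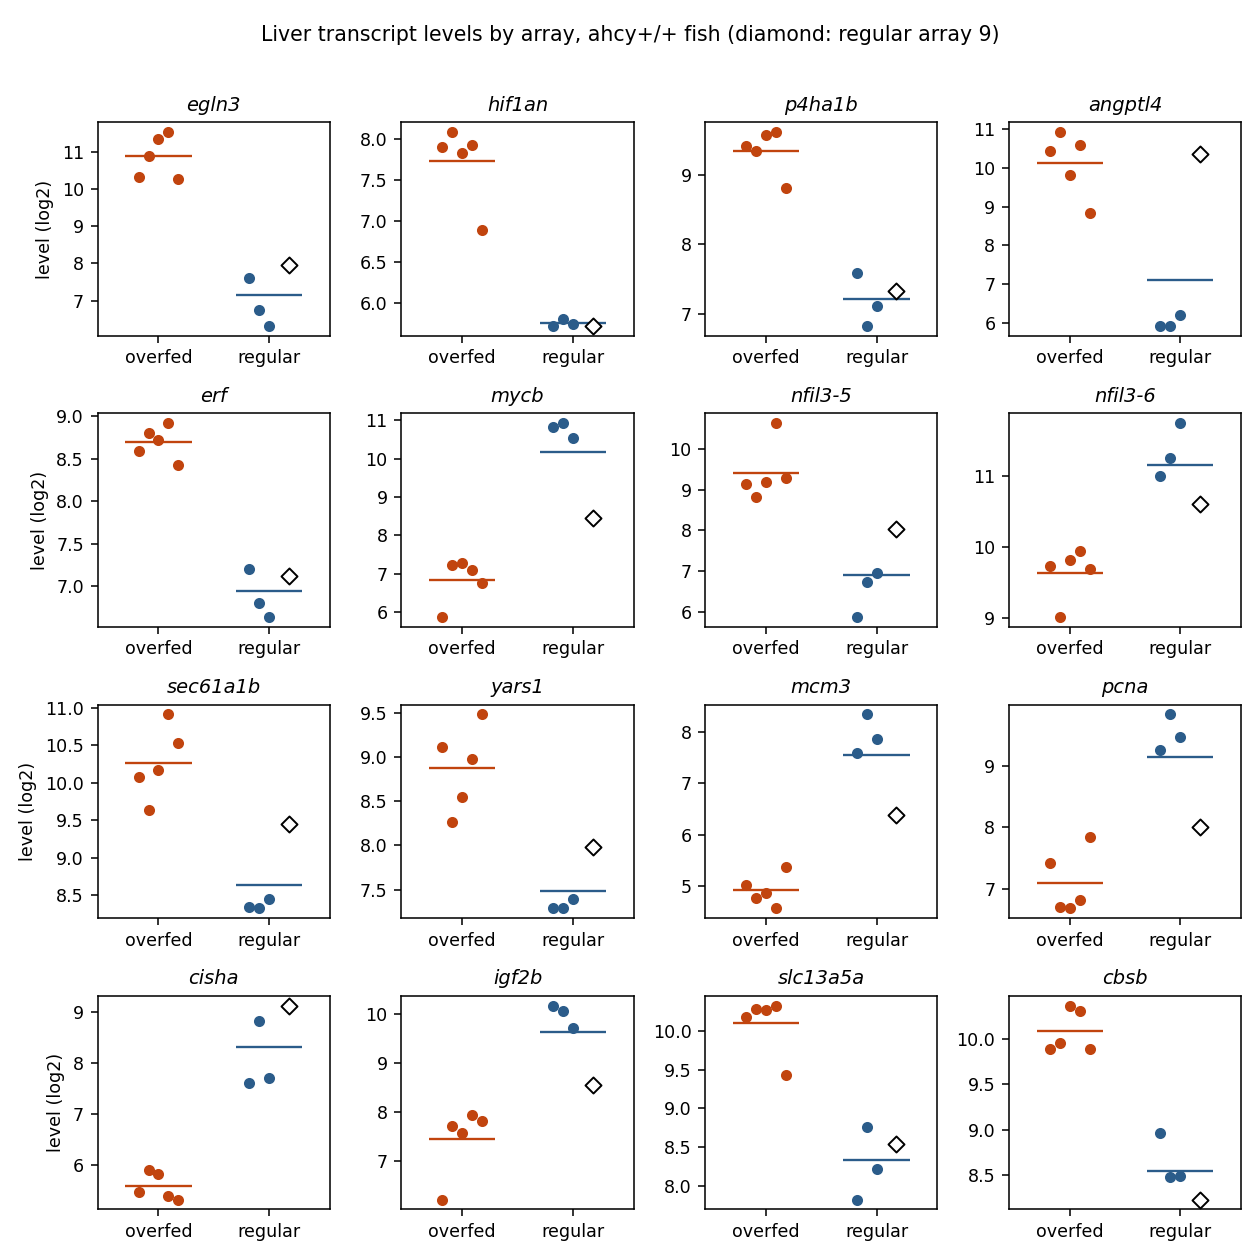
Log2 level of 16 transcripts on each array (points) with the group mean (line), overfed left and regular right; the diamond is regular array 9. The vertical scales differ between panels. For angptl4 the diamond (10.35) lies among the overfed arrays, for mcm3 and pcna between the diets, and for hif1an and p4ha1b with the other regular arrays.

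Immediate early and signal-induced transcription factors changed in both directions. Of 66 measured genes 8 were higher and 4 lower (18.2%, against 5.16% of all genes), and 9 of these 12 passed in all 9 fits. The ETS-domain repressor gene erf had levels of 8.59, 8.80, 8.73, 8.92 and 8.43 on the overfed arrays, against 7.21, 6.80, 6.64 and 7.12 on the regular arrays. Its arrays were tightly grouped by diet, and the difference was 1.75 ± 0.15 (adjusted p = 0.000166). The ADP-ribosyltransferase gene tiparp, an aryl hydrocarbon receptor target, had levels of 7.99, 8.57, 8.31, 8.14 and 7.92 on the overfed arrays, against 6.80, 7.08, 6.92 and 7.05 on the regular arrays. It differed by 1.23 ± 0.14 (adjusted p = 0.00101), with a gap between the groups. The AP-1 subunit gene junbb stood at 11.57, 11.74, 12.34, 12.70 and 12.29 on the overfed arrays, against 10.43, 10.06, 10.63 and 9.98 on the regular arrays (1.85 ± 0.34, adjusted p = 0.0119). Its paralogue junba also rose (1.71 ± 0.37, adjusted p = 0.0212) but lost its call without regular array 2, 5 or 6, at most at 0.0706 without array 5. Another AP-1 gene, fosab, has several probe sets: the one counted in this list did not pass (0.69 ± 0.33, adjusted p = 0.262), nor did another (0.56, adjusted p = 0.289), while 1 passed (3.34 ± 0.61, adjusted p = 0.0119) and a further one had levels of 7.85, 6.54, 8.30, 10.32 and 8.24 on the overfed arrays, against 4.80, 4.40, 4.89 and 4.29 on the regular arrays. This last probe set differed by 3.65 ± 0.64 (adjusted p = 0.0103), and overfed array 6 was the highest.

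Among the genes of this list that fell, mycb, a MYC family gene that drives growth, had levels of 5.87, 7.23, 7.28, 7.09 and 6.76 on the overfed arrays, against 10.81, 10.92, 10.54 and 8.46 on the regular arrays. Array 9 was more than 2 units below the other regular arrays and still above every overfed array. The difference was -3.33 ± 0.58 (adjusted p = 0.0103), and -3.91 (adjusted p = 0.00193) without it. The cytokine signalling inhibitor gene socs1a (-1.07 ± 0.26, adjusted p = 0.0342) lost its call in 8 of the 9 fits, all but the one without regular array 9, at most at 0.103 without regular array 5. Several members were called only without array 9. The Krüppel-like factor gene klf11b had levels of 8.53, 9.09, 7.83, 8.60 and 8.11 on the overfed arrays, against 5.25, 5.30, 5.48 and 8.56 on the regular arrays. With array 9 inside the overfed range, its difference was 2.28 ± 0.68 (adjusted p = 0.0759), and 3.08 (adjusted p = 0.00432) without it. The liver factor gene cebpa stood at 6.86, 7.24, 7.68, 8.02 and 8.22 on the overfed arrays, against 9.79, 10.24, 9.88 and 7.50 on the regular arrays. It did not pass with all arrays (-1.75, adjusted p = 0.115) and did without array 9 (-2.37, adjusted p = 0.013), whereas its paralogue cebpb was higher (1.17 ± 0.26, adjusted p = 0.023). The call of cebpb ended without overfed array 4 or 6 or regular array 2, 5 or 6, at most at 0.0636 without overfed array 6.

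Genes that move proteins into the endoplasmic reticulum and on to the Golgi were mostly higher where they changed. Of 68 measured members 11 were higher and 1 lower (17.6%), and 50 had a positive difference, with a median of 0.22. The translocation channel gene sec61a1b had levels of 10.08, 9.63, 10.17, 10.92 and 10.54 on the overfed arrays, against 8.34, 8.32, 8.44 and 9.45 on the regular arrays. Array 9 was about 1 unit above the other regular arrays and just below the lowest overfed array. The difference was 1.63 ± 0.27 (adjusted p = 0.00811), and 1.90 (adjusted p = 0.00157) without array 9. The COPI coat, which returns vesicles to the endoplasmic reticulum, had 5 subunit genes among the 11. For copg2, the level was 9.26, 8.94, 9.19, 9.59 and 9.37 on the overfed arrays, against 8.45, 8.42, 8.43 and 8.45 on the regular arrays, with the regular arrays nearly equal. It differed by 0.83 ± 0.13 (adjusted p = 0.00575), and with sec61a1b it was 1 of 2 members that passed in all 9 fits. Other probe sets of copg2 went the other way without passing: 1 differed by -0.79 (adjusted p = 0.528; 0.13 without array 9) and 1 by -0.37 (adjusted p = 0.0666), which passed as lower without array 9 (-0.41, adjusted p = 0.0417).

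The other coat genes were copb1 (0.74 ± 0.16), copb2 (0.66 ± 0.14), copa (0.61 ± 0.15) and cope (0.59 ± 0.14), with adjusted p from 0.0187 to 0.0327. Other probe sets of copb2 (0.36, adjusted p = 0.106, and 0.53, adjusted p = 0.859) and copa (0.42, adjusted p = 0.0685) did not pass. Cargo receptor genes of the same route rose too: kdelr2a (0.65 ± 0.14, adjusted p = 0.021), tmed4 (0.70 ± 0.14, adjusted p = 0.0184) and tmed9 (0.61 ± 0.13, adjusted p = 0.0201). The 11 also included the vesicle fusion gene sec22bb (0.57) and the COPII coat gene sec13 (0.41). The signal peptidase subunit gene spcs1 was the only member lower (-0.46 ± 0.10, adjusted p = 0.0209). These calls were close to the threshold and ended without 1 or more arrays: the highest adjusted p was 0.0771 for copb1 and 0.105 for copa without regular array 5, and 0.0638 for copb2 and 0.0867 for cope without regular array 2. It was 0.07 for kdelr2a, 0.0653 for tmed9, 0.0666 for sec22bb and 0.138 for sec13 without regular array 2, and 0.0604 for tmed4 and 0.0728 for spcs1 without regular array 5. Without regular array 9 the list had 15 higher and 1 lower and a median of 0.26. After quantile normalization its median was 0.13.

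Genes for charging tRNAs and for translation followed in part. Of 23 cytosolic and mitochondrial tRNA synthetase genes 3 were higher and none lower (13%), and without array 9 these counts were 6 and 1. For yars1, the tyrosine enzyme, the level was 9.11, 8.27, 8.55, 8.98 and 9.48 on the overfed arrays, against 7.29, 7.29, 7.39 and 7.99 on the regular arrays. The groups did not overlap, and array 9 was the highest regular array. The difference was 1.39 ± 0.24 (adjusted p = 0.00985). The methionine enzyme gene mars1 stood at 6.90, 6.47, 6.54, 7.09 and 7.23 on the overfed arrays, against 5.74, 5.86, 5.63 and 6.17 on the regular arrays (0.99 ± 0.19, adjusted p = 0.013). Both of these probe sets passed in all 9 fits. The call of qars1 (0.71 ± 0.17, adjusted p = 0.0358) ended in 6 of the 9, at most at 0.101 without regular array 6. Another mars1 probe set differed by -0.06 (adjusted p = 0.828). Other yars1 probe sets differed by 1.06 (adjusted p = 0.0187) and 0.16 (adjusted p = 0.458). The list's median was 0.26, and 0.50 without array 9, which lay above the mean of the other regular arrays for 19 of the 23 genes. Among 55 translation factor genes 4 were higher and 2 lower (10.9%).

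The RNA helicase gene eif4a2, part of the cap-binding complex, fell: its level was 7.67, 7.45, 7.18, 7.0 and 7.43 on the overfed arrays, against 8.72, 9.01, 8.44 and 8.24 on the regular arrays. It differed by -1.26 ± 0.19 (adjusted p = 0.00575) with no overlap. The elongation factor 2 kinase gene eef2k, whose product slows elongation, stood at 9.28, 9.07, 9.48, 9.14 and 8.32 on the overfed arrays, against 7.54, 7.22, 7.17 and 8.25 on the regular arrays. Overfed array 7 and regular array 9 nearly met, and the difference was 1.52 ± 0.26 (adjusted p = 0.00985). Other factor genes that rose were eif3jb (0.95 ± 0.20), eif4e1c (0.87 ± 0.23) and eif4a3 (0.44 ± 0.11), and eif3i fell (-0.65 ± 0.15), with adjusted p from 0.0195 to 0.048. Their calls ended in 4 to 8 of the 9 fits, with highest adjusted p of 0.0661 for eif3jb without regular array 2, 0.125 for eif4e1c without overfed array 6, and 0.107 for eif4a3 and 0.0787 for eif3i without regular array 5. The 74 cytosolic ribosomal protein genes had no member past the threshold and a median of -0.03, which was 0.03 with centred arrays.

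Ribosome assembly genes were mostly higher on regular array 9 too. Of 98 measured members it lay above the mean of the other regular arrays for 87. With all arrays 1 member was higher and 1 lower (2.04%, below the 5.16% of all genes). Without array 9, where 10.3% of all genes passed, the counts were 6 and 1. The median difference was 0.08 with it and 0.21 without it. The nucleolar chaperone gene npm1a had levels of 12.02, 11.13, 11.85, 12.31 and 12.22 on the overfed arrays, against 10.67, 10.62, 10.30 and 11.47 on the regular arrays. Array 9 lay above overfed array 3, so that the groups overlapped. Its difference of 1.14 ± 0.28 (adjusted p = 0.0376) was 1.37 (adjusted p = 0.00954) without array 9, and failed at most at 0.107 without regular array 6, and in 7 of the 9 fits. Another npm1a probe set differed by -0.59 (adjusted p = 0.31). The assembly factor gene sdad1 was the lower one (-0.56 ± 0.14, adjusted p = 0.0371, at most 0.101 without regular array 2). Called only without array 9 were the methyltransferase gene fbl (1.19, adjusted p = 0.0418; 0.79 with it), the helicase genes ddx18 (1.02; 0.64 with it) and ddx56 (0.83; 0.54 with it), mybbp1a (0.94; 0.74 with it) and wdr43 (0.75; 0.35 with it). Another ddx18 probe set did not pass in that fit (0.18, adjusted p = 0.595). Nor did other mybbp1a probe sets (0.83, 0.59 and 0.10, with adjusted p of 0.0887, 0.161 and 0.666).

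Of 125 DNA replication and cell cycle genes 20 fell and 1 rose (16.8%, against 5.16% of all genes), 101 had a negative difference, and the median was -0.19. Without regular array 9 it was 30 lower and 1 higher. The replicative helicase gene mcm3 had levels of 5.03, 4.78, 4.87, 4.57 and 5.37 on the overfed arrays, against 7.58, 8.34, 7.87 and 6.39 on the regular arrays. The sliding clamp gene pcna had levels of 7.42, 6.70, 6.68, 6.82 and 7.84 on the overfed arrays, against 9.25, 9.83, 9.46 and 8.0 on the regular arrays. For mcm5, another helicase subunit, it was 6.13, 6.06, 5.78, 5.78 and 5.99 on the overfed arrays, against 7.71, 8.06, 7.82 and 6.17 on the regular arrays. In all 3 genes array 9 was the lowest regular array by more than 1 unit, and for mcm5 it nearly met the highest overfed array. The differences without it were -3.01, -2.42 and -1.91, against -2.62, -2.04 and -1.49 with it. The calls of these mcm3 and pcna probe sets held in all 9 fits. That of mcm5 ended without overfed array 6 or regular array 2, 5 or 6, at most at an adjusted p of 0.0648 without regular array 5. Another mcm3 probe set differed by -0.08 (adjusted p = 0.799), and by -0.04 without array 9.

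Over the 31 members of this list called without array 9, the median position of that array was 0.80, close to the overfed mean. The choice of members called without array 9 sets this position in part. Those called only without it included the single-strand binding protein genes rpa1 (-1.09, against -0.84 with it) and rpa2 (-0.90, against -0.67), the primase gene prim1 (-0.95, against -0.65), fen1 (-0.82, against -0.63) and cdk2 (-0.68, against -0.48). The cyclin-dependent kinase inhibitor gene cdkn1bb was the member that rose. Its level was 8.83, 8.95, 9.25, 9.13 and 8.26 on the overfed arrays, against 7.15, 7.06, 8.03 and 8.05 on the regular arrays, with no overlap. The difference was 1.31 ± 0.28 (adjusted p = 0.0201). It failed without overfed array 4 or 6 or regular array 2 or 5, at most at 0.0693 without regular array 5. Another cdkn1bb probe set passed with all arrays (1.35, adjusted p = 0.00323) and without array 9 (1.44, adjusted p = 0.00204). Among 40 nucleotide synthesis genes 1 was higher and 4 lower (12.5%). The purine salvage gene hprt1 stood at 8.53, 8.55, 8.54, 8.66 and 8.27 on the overfed arrays, against 6.29, 6.76, 6.79 and 7.64 on the regular arrays. It rose by 1.64 ± 0.33 (adjusted p = 0.0166), at most 0.0566 without regular array 2, and also failed without regular array 5.

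In the same list the ribonucleotide reductase gene rrm1 fell, with levels of 5.13, 4.99, 5.12, 4.99 and 5.20 on the overfed arrays, against 5.92, 6.17, 6.03 and 5.62 on the regular arrays. It passed in all 9 fits (-0.85 ± 0.13, adjusted p = 0.00583). In the thymidylate synthase gene tyms array 9 lay away from the overfed side. It stood at 6.02, 6.21, 6.11, 5.93 and 6.16 on the overfed arrays, against 6.73, 7.04, 6.97 and 8.28 on the regular arrays. Array 9 was the highest array of all here, and the difference was -0.82 (adjusted p = 0.0108) without it, against -1.17 ± 0.26 (adjusted p = 0.0264) with it. Its call ended without overfed array 2, 4 or 6 or regular array 5, at most at 0.0729. The nucleotide pool enzyme genes dut (-1.0 ± 0.25, adjusted p = 0.0368) and nme6 (-0.54 ± 0.13, adjusted p = 0.0378) each lost their call in 7 of the 9 fits, at most at 0.0957 without regular array 6 and 0.117 without regular array 5.

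Fat and sterol genes moved in both directions. Of 42 fatty acid and triglyceride synthesis genes 4 were higher and 2 lower (14.3%), with a median of 0.25 that was 0.15 without regular array 9. The acetyl-CoA carboxylase gene acaca, which makes malonyl-CoA, had levels of 12.03, 12.07, 12.29, 12.68 and 12.35 on the overfed arrays, against 9.90, 10.44, 11.41 and 11.15 on the regular arrays. The groups were apart, and the regular arrays were more spread out. Its difference of 1.56 ± 0.33 (adjusted p = 0.0209) failed without overfed array 6 or regular array 2 or 5, at most at 0.0702 without regular array 5. The gene mid1ip1l, whose mammalian relative activates that enzyme, moved the other way, with levels of 8.83, 8.86, 8.40, 8.12 and 8.84 on the overfed arrays, against 10.42, 9.88, 10.12 and 9.94 on the regular arrays. It fell by 1.48 (SE 0.20, adjusted p = 0.00327). The phosphatidate phosphatase gene lpin1a stood at 7.47, 7.20, 7.36, 6.94 and 7.46 on the overfed arrays, against 7.99, 8.18, 8.37 and 8.14 on the regular arrays (-0.88 ± 0.13, adjusted p = 0.00416). Both passed in all 9 fits and had array 9 among the other regular arrays.

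The fatty acid transport gene slc27a6 had levels of 8.84, 8.98, 8.80, 8.36 and 8.12 on the overfed arrays, against 6.02, 6.48, 6.57 and 5.98 on the regular arrays, far apart. It passed in all 9 fits, with a highest adjusted p of 0.00526. The NADPH source me1 (0.99 ± 0.26, adjusted p = 0.0497) and the lipase gene lipea (0.54 ± 0.12, adjusted p = 0.0289) were less stable. They reached at most 0.125 without overfed array 6 and 0.0956 without regular array 5. Another me1 probe set differed by -0.07 (adjusted p = 0.829). In the sterol list, 11 of 13 genes had a positive difference and the median was 1.35, but only 2 passed. The mean level of the list was 7.61, 7.43, 8.65, 9.91 and 9.67 on the overfed arrays, against 7.20, 7.35, 7.50 and 7.41 on the regular arrays. Overfed array 3 lay within the regular range and overfed array 2 just above it, so the rise was uneven within the overfed group. A probe set of insig1, which holds the sterol sensor in the endoplasmic reticulum, had levels of 8.68, 8.86, 10.01, 10.41 and 9.92 on the overfed arrays, against 7.99, 7.12, 7.52 and 7.01 on the regular arrays. There was no overlap, and this probe set passed in all 9 fits (2.17 ± 0.42, adjusted p = 0.0144), but not with intestine and pancreas marker means as covariates (1.60, adjusted p = 0.0533). The brighter insig1 probe set, counted in the list, differed by 1.44 ± 0.32 (adjusted p = 0.0252) and failed in 5 of the 9 fits, at most at 0.0808 without regular array 5. The largest difference of the list, 2.94, did not pass. Of 27 fatty acid oxidation genes 23 had a positive difference, with a median of 0.29. Past the threshold none was higher and 1 was lower (3.7%, below the 5.16% of all genes). The lower gene was ehhadh (-0.59 ± 0.14, adjusted p = 0.0285), which did not pass in all 9 fits.

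The carnitine transferase gene cpt1b, the gate of mitochondrial fat oxidation in muscle of mammals, had levels of 7.95, 8.87, 7.96, 7.83 and 5.88 on the overfed arrays, against 3.27, 4.71, 4.98 and 8.42 on the regular arrays. Regular array 9 lay among the overfed arrays, and overfed array 7 above the other regular arrays. It passed only without array 9 (3.38, adjusted p = 0.0223, against 2.35, adjusted p = 0.197). The intestinal fatty acid binding protein gene fabp2 stood at 6.88, 5.08, 5.58, 5.42 and 5.94 on the overfed arrays, against 8.85, 10.79, 9.72 and 11.89 on the regular arrays. The groups did not overlap. On the regular arrays it ran in the same order as the mean of the 21 intestine markers given above, of which it was the only one that passed. Of those 21 genes 16 had a negative difference, with a median of -1.13 that was -0.68 without array 9. With the intestine and pancreas marker means as covariates the difference of fabp2 was -3.0 (adjusted p = 0.0139), against -4.53 (adjusted p = 0.011) without them. Because fabp2 is 1 of the 21 genes averaged, this fit adjusts it partly for itself, and the shared order has the same limit. The part of intestine tissue in its difference was not tested.

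Genes for making glucose and breaking down amino acids gave calls that held. Of 52 measured members 5 were higher and 1 lower (11.5%), and all 6 passed in each of the 9 fits. The cystathionine synthase gene cbsb, which draws homocysteine toward cysteine, had levels of 9.89, 9.96, 10.37, 10.31 and 9.89 on the overfed arrays, against 8.97, 8.47, 8.49 and 8.23 on the regular arrays. Every overfed array was higher, and array 9 was the lowest regular array. Another cbsb probe set did not pass (0.35, adjusted p = 0.129). The tryptophan dioxygenase gene tdo2a stood at 12.34, 12.58, 12.60, 12.73 and 12.42 on the overfed arrays, against 11.29, 11.36, 11.81 and 11.76 on the regular arrays. Its difference was 0.97 ± 0.16 (adjusted p = 0.00811). The mitochondrial aspartate transferase gene got2b stood at 10.12, 9.93, 10.13, 10.42 and 10.14 on the overfed arrays, against 9.39, 9.36, 9.10 and 9.26 on the regular arrays (0.87 ± 0.14, adjusted p = 0.00813). The groups were apart in both.

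The tyrosine transferase gene tat (0.65 ± 0.13, adjusted p = 0.0153) had levels of 11.73, 12.15, 12.12, 11.96 and 11.95 on the overfed arrays, against 11.46, 11.24, 11.16 and 11.46 on the regular arrays. The mitochondrial phosphoenolpyruvate carboxykinase gene pck2 (0.67 ± 0.12, adjusted p = 0.0108) had levels of 11.58, 11.82, 11.87, 11.80 and 11.27 on the overfed arrays, against 11.01, 10.98, 11.09 and 10.94 on the regular arrays. Neither overlapped, and tat did not pass after quantile normalization (0.36, adjusted p = 0.176). The gene that fell was bckdk, whose product inhibits breakdown of branched-chain amino acids. Its level was 7.42, 8.22, 7.62, 7.69 and 7.40 on the overfed arrays, against 9.36, 9.33, 9.35 and 8.65 on the regular arrays. Regular arrays 2, 5 and 6 were nearly equal and array 9 was below them, but above all overfed arrays (-1.51 ± 0.25, adjusted p = 0.00859). Over the whole list, 33 of 52 members had a positive difference, with a median of 0.06, and 26 with a median of -0.01 without array 9. The glutamate dehydrogenase gene glud1a passed only without array 9 (-1.94, adjusted p = 0.00403, against -1.46, adjusted p = 0.0615).

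Genes known to answer to glucocorticoids overlap with these. Of 32 measured members 6 were higher and none lower (18.8%), with or without array 9. Besides tdo2a, tat, cebpb and lipea they were the anti-inflammatory gene tsc22d3 (1.04 ± 0.25, adjusted p = 0.0319) and the zinc finger gene zbtb16a. The level of zbtb16a was 7.89, 8.26, 8.35, 8.26 and 7.82 on the overfed arrays, against 5.87, 6.06, 5.79 and 7.86 on the regular arrays. Array 9 fell inside the overfed range. Its difference of 1.72 ± 0.45 (adjusted p = 0.0463) was 2.21 (adjusted p = 0.0043) without array 9, and failed in each of the 8 other fits, at most at 0.128 without regular array 5. The call of tsc22d3 failed at most at 0.102, also without regular array 5, and those of cebpb and lipea as given above. The median of the list was 0.08, with 17 positive and 15 negative differences, and 26 of the 32 members did not pass.

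Of 24 genes of growth hormone and IGF signalling 5 fell and none rose (20.8%, against 5.16% of all genes), and 19 did not pass. The median was -0.11, with 9 positive and 15 negative differences, and with centred arrays 12 and 12. The JAK-STAT inhibitor gene cisha, itself induced by growth hormone, had levels of 5.47, 5.90, 5.81, 5.39 and 5.32 on the overfed arrays, against 7.62, 8.82, 7.71 and 9.13 on the regular arrays. Array 9 was the highest of all, and the gap to the overfed arrays was over 1 unit. Its paralogue cishb stood at 5.25, 5.80, 5.53, 5.20 and 4.77 on the overfed arrays, against 5.85, 6.07, 6.44 and 6.37 on the regular arrays, a narrow gap. The difference was -0.87 ± 0.20 (adjusted p = 0.0256), which failed without overfed array 2 or 6 or regular array 5 or 6, at most at 0.081 without regular array 6. The growth hormone receptor gene ghrb stood at 9.34, 9.58, 9.34, 9.26 and 8.78 on the overfed arrays, against 10.24, 10.43, 9.93 and 10.07 on the regular arrays. It passed in all 9 fits (-0.91 ± 0.17, adjusted p = 0.0119), as did cisha.

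The growth factor gene igf2b had levels of 6.22, 7.73, 7.59, 7.94 and 7.83 on the overfed arrays, against 10.18, 10.07, 9.72 and 8.56 on the regular arrays. Both groups had 1 low array, overfed array 2 and regular array 9, and they did not overlap. The call ended without regular array 2, 5 or 6, at most at an adjusted p of 0.0758 without regular array 5. Of 37 insulin and mTOR genes 2 were higher and none lower, a share (5.41%) near the 5.16% of all genes. They were ddit4 and gsk3ab (0.39 ± 0.10, adjusted p = 0.0421, at most 0.12 without regular array 2). Leukocyte markers had no call: 19 of 20 had a negative difference, with a median of -0.29, and their mean level was 6.41, 6.42, 6.55, 6.79 and 6.77 on the overfed arrays, against 7.07, 6.93, 6.66 and 6.90 on the regular arrays. Their part in any of these results was not tested.

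**Figure D5:**
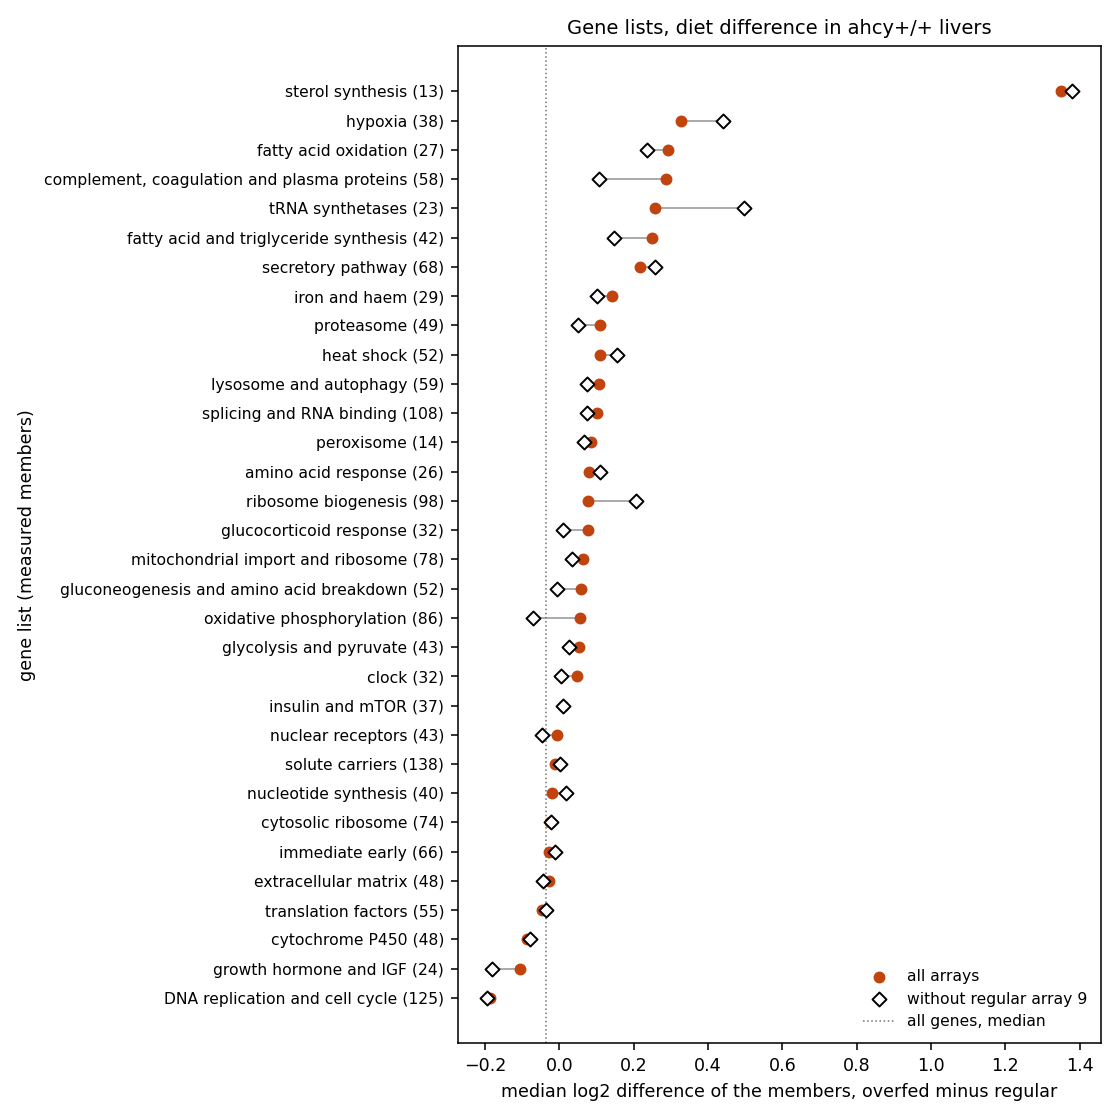
Median log2 difference (overfed minus regular) of the measured members of each gene list, with all arrays (filled circle) and without regular array 9 (open diamond); the dotted line is the median of all genes. The medians of tRNA synthetase (0.26 and 0.50), plasma protein (0.29 and 0.11) and ribosome biogenesis genes (0.08 and 0.21) shift when the array is left out.

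Of 138 solute carrier genes 11 were higher and 1 lower (8.7% in all, against 5.16% of all genes), while 66 had a positive and 72 a negative difference, with a median of -0.01. The citrate transporter gene slc13a5a had levels of 10.18, 10.28, 10.26, 10.33 and 9.43 on the overfed arrays, against 7.82, 8.76, 8.21 and 8.54 on the regular arrays. Overfed array 7 was the low one of its group and still above every regular array, with a difference of 1.76 ± 0.24 (adjusted p = 0.00323). The neutral amino acid transporter gene slc43a2a stood at 8.21, 8.43, 7.64, 8.64 and 7.10 on the overfed arrays, against 5.38, 5.49, 5.72 and 6.88 on the regular arrays. Overfed array 7 and regular array 9 were the closest to each other. Both genes and slc27a6 passed in all 9 fits. The mitochondrial ATP-magnesium carrier gene slc25a25a (1.56 ± 0.35, adjusted p = 0.0238) and the amino acid transporter gene slc38a4 (0.75 ± 0.17, adjusted p = 0.0244) did not, at most 0.0784 and 0.0786 without regular array 2. Without array 9 the list had 17 higher and 2 lower. Those added included the sialic acid exporter gene slc17a5 (1.17, against 0.69) and the amino acid transporter gene slc43a1a (1.19, against 0.77).

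The iron exporter gene slc40a1, ferroportin, had levels of 9.05, 10.17, 8.24, 10.93 and 9.16 on the overfed arrays, against 7.67, 8.49, 7.57 and 6.36 on the regular arrays. The groups overlapped, with overfed array 4 below regular array 5. The difference of 1.98 ± 0.50 (adjusted p = 0.0421) rested in part on array 9, being 1.60 (adjusted p = 0.0656) without it, and failed in 7 of the 9 fits, at most at 0.0932 without overfed array 6. It was, with the haem synthesis gene cpox (0.88 ± 0.23, adjusted p = 0.0455; 0.0681 without array 9 and at most 0.119 without overfed array 6), 1 of 2 iron and haem genes called among 29 (6.9%, near the 5.16% of all genes). The only lower carrier was slc25a26, which brings S-adenosylmethionine into mitochondria (-0.61 ± 0.14, adjusted p = 0.0294, at most 0.094 without regular array 5). For comparison ahcy itself stood at 13.18, 13.26, 13.26, 13.14 and 13.19 on the overfed arrays, against 13.15, 13.16, 13.23 and 13.08 on the regular arrays. The groups overlapped and its difference was 0.05 ± 0.08 (adjusted p = 0.777).

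Cytochrome P450 genes had 2 of 48 members lower and none higher, a share (4.17%) near the 5.16% of all genes. The vitamin D hydroxylase gene cyp2r1 had levels of 4.90, 5.37, 4.72, 4.67 and 4.96 on the overfed arrays, against 8.25, 9.50, 8.51 and 9.02 on the regular arrays, the clearest gap of the comparison by adjusted p (0.000155). The other was cyp3a65, a xenobiotic oxidase gene, with levels of 9.94, 10.69, 10.71, 10.47 and 10.16 on the overfed arrays, against 11.21, 11.11, 11.27 and 11.13 on the regular arrays. Its difference of -0.79 ± 0.17 (adjusted p = 0.0233) failed without overfed array 6 or regular array 2, 5 or 6, at most at 0.0684 without regular array 6. Of 43 nuclear receptor genes 2 were higher and 1 lower (6.98%, near the background). The orphan receptor gene rorab, also a clock gene, stood at 9.05, 9.31, 8.89, 8.94 and 8.45 on the overfed arrays, against 7.55, 7.45, 7.08 and 7.54 on the regular arrays (1.52 ± 0.26, adjusted p = 0.00998). The FTZ-F1 family gene nr5a5 stood at 9.04, 8.30, 8.02, 8.45 and 8.49 on the overfed arrays, against 10.01, 9.87, 9.97 and 9.28 on the regular arrays (-1.32 ± 0.25, adjusted p = 0.0129). Neither overlapped and both passed in all 9 fits. The hepatocyte factor gene hnf4a (0.67 ± 0.14, adjusted p = 0.0216) failed in 5 of them, at most at 0.0732 without regular array 2, and another hnf4a probe set differed by -0.60 (adjusted p = 0.331).

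Oestrogen receptor genes moved only once regular array 9 was left out. The level of esr2b was 9.27, 8.76, 9.98, 9.01 and 9.07 on the overfed arrays, against 6.97, 7.33, 7.71 and 10.43 on the regular arrays. The level of esr1 was 5.87, 6.38, 6.33, 6.59 and 6.11 on the overfed arrays, against 5.56, 5.36, 5.56 and 8.46 on the regular arrays. In both genes array 9 was the highest array and the other regular arrays the lowest. Without it they differed by 1.88 (adjusted p = 0.01) and 0.76 (adjusted p = 0.0108), against 1.11 (adjusted p = 0.327) and 0.02 (adjusted p = 0.987) with it. Array 9 was also the highest in vitellogenin, as given above. Among 32 clock genes 4 were higher and 1 lower (15.6%). Besides rorab, the cryptochrome genes cry4 (0.98 ± 0.17, adjusted p = 0.0108) and cry3a (0.50 ± 0.10, adjusted p = 0.0166) rose, and the call of cry3a ended without overfed array 6 (adjusted p = 0.0518). The PAR-domain factor gene tefa fell only without array 9 (-2.09, adjusted p = 0.015, against -1.51, adjusted p = 0.142). The labels give no time of day.

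RNA-binding and splicing genes had 6 of 108 members higher and 3 lower (8.33%). The gene hnrnpd, whose product binds AU-rich RNA, had levels of 8.08, 8.18, 8.17, 8.39 and 7.97 on the overfed arrays, against 7.20, 7.29, 7.36 and 7.12 on the regular arrays. Its groups were apart by more than either group's range, and the difference was 0.92 ± 0.12 (adjusted p = 0.00316), while another hnrnpd probe set differed by -0.29 (adjusted p = 0.525). Also higher in all 9 fits were hnrnpl (1.01 ± 0.20), rbm8a (0.65 ± 0.12) and a probe set of hnrnpa0b (1.19 ± 0.22), with adjusted p from 0.0133 to 0.0158. Heat shock and chaperone genes had 5 of 52 members higher and 1 lower (11.5%), none of which passed in all 9 fits. The chaperone gene hspa4a stood at 9.45, 8.57, 9.51, 9.93 and 10.24 on the overfed arrays, against 7.62, 7.52, 7.65 and 8.57 on the regular arrays. The lowest overfed array and regular array 9 were level with each other. Its difference was 1.70 ± 0.40 (adjusted p = 0.031), at most 0.0947 without regular array 5 and failing in 7 of 9 fits.

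Proteasome genes had 6 of 49 members higher and 1 lower (14.3%), the lower being psmc3ip, a recombination gene that carries a proteasome-like name. The ubiquitin receptor gene psmd4b stood at 8.0, 8.01, 7.58, 7.81 and 7.99 on the overfed arrays, against 6.86, 7.02, 7.24 and 6.75 on the regular arrays, with no overlap. It was the only member that passed in all 9 fits (0.91 ± 0.15, adjusted p = 0.00811). The median of the list was 0.11, and 0.00 after quantile normalization. Lysosome and autophagy genes had 5 of 59 members higher and none lower (8.47%). The lysosomal protease gene ctsd stood at 10.05, 10.49, 10.46, 10.55 and 10.29 on the overfed arrays, against 9.94, 9.58, 9.76 and 9.38 on the regular arrays (0.70 ± 0.13, adjusted p = 0.0125), and passed in all 9 fits. The autophagosome gene map1lc3b (0.98 ± 0.24, adjusted p = 0.0397) did not pass without array 9 (0.0612), nor in 7 other fits, at most 0.0811 without overfed array 2.

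Genes of mitochondria showed few calls and no steady list direction. Of 86 oxidative phosphorylation genes 2 were higher (2.33%, below the 5.16% of all genes). The electron carrier gene cycsb, cytochrome c, stood at 11.32, 11.15, 11.52, 11.87 and 11.78 on the overfed arrays, against 10.47, 10.74, 10.42 and 10.30 on the regular arrays. It was apart and passed in all 9 fits (1.05 ± 0.20, adjusted p = 0.0138), while the complex III gene uqcrfs1 (0.60 ± 0.12, adjusted p = 0.0181) reached 0.0563 without regular array 2. The list's median of 0.05 turned to -0.12 after quantile normalization and to -0.07 without array 9, which lay below the other regular arrays' mean for 72 of the 86 genes. Of 78 mitochondrial import and ribosome genes 2 were higher and 1 lower (3.85%), the lower being the ribosomal gene mrpl3 (-0.76 ± 0.13, adjusted p = 0.00877). The import channel gene timm17a (1.14 ± 0.29, adjusted p = 0.0428) lost its call in 8 of the 9 fits, at most at 0.125 without regular array 2, and stood at 1.48 (adjusted p = 0.0026) without array 9.

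Calls among plasma protein genes rested in part on regular array 9. Of 58 measured members 3 were higher and 2 lower (8.62%) with all arrays. The counts were 1 and 1 without array 9, where 10.3% of all genes passed. The median was 0.29 with it and 0.11 without it, and array 9 lay below the mean of the other regular arrays for 48 of the 58. The C1 inhibitor gene serping1 stood at 12.53, 12.63, 12.96, 13.06 and 12.95 on the overfed arrays, against 12.40, 12.20, 12.48 and 11.61 on the regular arrays. Array 9 was the lowest by far, and the gap between the diets was narrow without it. Its difference was 0.66 ± 0.17 (adjusted p = 0.0481), and 0.47 (adjusted p = 0.0508) without array 9. The fibrinogen gene fga did likewise, at 0.53 ± 0.13 (adjusted p = 0.0398) and 0.41 (adjusted p = 0.0535), as did the heparin cofactor gene serpind1, at 0.75 ± 0.20 (adjusted p = 0.0495) and 0.54 (adjusted p = 0.0561). Each failed in 7 or 8 of the 9 fits, at most at 0.102 to 0.126 without overfed array 6. The hepatocyte markers include fga and other plasma protein genes, so they are not independent of this list. Of these markers, 16 of 17 were lower on array 9 than in the mean of the other regular arrays. The level of that array in pancreas and intestine markers is given above. With the pancreas and intestine marker means as covariates, serping1 (0.46, adjusted p = 0.173), fga (0.45, adjusted p = 0.12) and serpind1 (0.47, adjusted p = 0.192) did not pass.

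Of 48 extracellular matrix genes 4 were higher and none lower (8.33%), among them p4ha1b and plod1a. The metalloproteinase inhibitor gene timp2a had levels of 9.44, 10.05, 9.58, 9.51 and 8.64 on the overfed arrays, against 6.97, 7.92, 7.60 and 6.38 on the regular arrays. It was apart and passed in all 9 fits, at most at 0.0297. The secreted adhesion gene tgfbi stood at 10.02, 11.06, 10.32, 10.27 and 8.72 on the overfed arrays, against 5.71, 6.78, 7.61 and 8.96 on the regular arrays. Overfed array 7 lay below regular array 9, and the difference was 3.38 (adjusted p = 0.00424) without array 9, against 2.81 ± 0.60 (adjusted p = 0.0209) with it. Its call ended without overfed array 4 or 6 or regular array 2 or 5, at most at 0.0694 without regular array 5. The list's median was -0.03.

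Genes ranked 13 to 30 by size in each direction had differences from 2.13 to 1.75 among the higher and from -1.77 to -1.20 among the lower ones. Several of the higher ones belong to no list above. The sialic acid lyase gene npl had levels of 8.80, 8.78, 8.67, 8.60 and 7.82 on the overfed arrays, against 6.39, 6.70, 6.86 and 6.02 on the regular arrays. The nuclease family gene eepd1 stood at 8.78, 9.24, 9.74, 9.54 and 9.18 on the overfed arrays, against 7.21, 7.44, 7.16 and 7.35 on the regular arrays. The groups were apart in both, and they differed by 2.04 ± 0.30 (adjusted p = 0.00455) and 2.01 ± 0.34 (adjusted p = 0.00982). The oxidant sensor gene keap1a, whose product holds NRF2 in check, stood at 10.18, 10.39, 10.29, 10.78 and 9.94 on the overfed arrays, against 7.89, 8.94, 9.08 and 8.01 on the regular arrays, with no overlap. The nuclear receptor corepressor gene nrip1b stood at 8.12, 8.20, 8.28, 8.06 and 7.28 on the overfed arrays, against 6.07, 5.77, 6.21 and 6.64 on the regular arrays (1.81 ± 0.24, adjusted p = 0.00323). Overfed array 7 was the low one of its group. These 4 genes passed in all 9 fits.

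Others of rank 13 to 30 were more fragile. The linker histone gene histh1l1 (2.06 ± 0.53, adjusted p = 0.0467) failed at most at 0.115 without regular array 5, and in 7 of the 9 fits. A tmem131 probe set (2.06 ± 0.51, adjusted p = 0.0381) stood at 9.62, 9.30, 9.97, 9.83 and 9.67 on the overfed arrays, against 7.13, 7.25, 6.74 and 9.37 on the regular arrays. Array 9 was inside the overfed range, and the difference was 2.64 (adjusted p = 0.0029) without it and failed in the 8 other fits, at most at 0.112 without regular array 5. The endoplasmic reticulum stress factor gene manf (1.85 ± 0.40, adjusted p = 0.021) failed without overfed array 4 or 6 or regular array 2 or 6, at most at 0.07, and the nucleotide sugar transporter gene slc35b4 (1.77 ± 0.38, adjusted p = 0.0209) without overfed array 4 or 6 or regular array 2 or 5, at most at 0.0662, both without regular array 2.

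Among the lower genes of these ranks, the choline kinase gene chka, which starts phosphatidylcholine synthesis, had levels of 7.81, 7.94, 8.20, 8.50 and 8.46 on the overfed arrays, against 10.77, 9.61, 9.55 and 9.88 on the regular arrays. The groups were apart, with regular array 2 the highest. Its difference of -1.77 ± 0.37 (adjusted p = 0.0187) failed only without that array (adjusted p = 0.0627). The RNA-binding gene khdrbs1a stood at 6.28, 6.24, 6.03, 5.80 and 5.88 on the overfed arrays, against 8.57, 7.47, 7.66 and 7.49 on the regular arrays (-1.75 ± 0.29, adjusted p = 0.00811). This probe set passed in all 9 fits, as did another (-1.56). A further khdrbs1a probe set passed with all arrays (-1.60, adjusted p = 0.00811) and without array 9 (-1.64, adjusted p = 0.00644). By contrast, 3 others differed by -0.14, 0.23 and -0.18 without passing. The kelch-family gene enc3 (-1.38 ± 0.25, adjusted p = 0.0121) stood at 7.58, 6.86, 7.52, 7.21 and 6.82 on the overfed arrays, against 8.77, 8.88, 8.95 and 7.71 on the regular arrays, array 9 being just above the highest overfed array. The TGF-beta receptor gene tgfbr2b stood at 6.92, 7.18, 6.22, 6.51 and 6.45 on the overfed arrays, against 7.71, 8.14, 8.09 and 7.63 on the regular arrays (-1.24 ± 0.24, adjusted p = 0.0153), and failed only without regular array 5 (adjusted p = 0.0502). Another tgfbr2b probe set did not pass (-0.34, adjusted p = 0.107). The secreted proteoglycan gene tsku (-1.32 ± 0.30, adjusted p = 0.0274) had overfed array 3 (9.38) above regular array 2 (9.30), and failed at most at 0.081 without regular array 6.

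The calls that moved most when regular array 9 was left out went both ways. The glycolysis gene pgam1a shifted most: it stood at 11.66, 11.70, 11.85, 11.73 and 11.83 on the overfed arrays, against 11.14, 11.40, 11.28 and 10.28 on the regular arrays. With array 9 the lowest, its difference of 0.73 ± 0.18 (adjusted p = 0.0379) was 0.48 (adjusted p = 0.0086) without it, and failed in 7 of the 9 fits, at most at 0.0894 without overfed array 6. The DNA methylation cofactor gene uhrf1 was -1.22 (adjusted p = 0.0443) with the array and -1.62 (adjusted p = 0.00186) without it, the clamp loader gene chtf8 -1.12 and -1.49, the replication gene rpa3 -1.20 and -1.57, and a probe set of the RNA helicase gene ddx3xa 0.75 and 0.98. The calls of uhrf1, chtf8, rpa3 and ddx3xa failed in 7 or 8 of the 9 fits, at most at 0.101 to 0.131 without regular array 5. Another uhrf1 probe set did not pass with array 9 (-0.22, adjusted p = 0.41) or without it (-0.32, adjusted p = 0.166).

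The strongest of the calls added without array 9 were not near the threshold in that fit. Another ddx3xa probe set had levels of 9.24, 9.19, 9.44, 9.65 and 9.32 on the overfed arrays, against 8.53, 8.26, 8.54 and 9.70 on the regular arrays. It differed by 0.93 (adjusted p = 0.00243) without array 9, which was the highest array, and by 0.62 (adjusted p = 0.158) with it. A further ddx3xa probe set differed by 0.05 (adjusted p = 0.852) without array 9 and by -0.06 (adjusted p = 0.827) with it. The selenophosphate synthetase gene sephs1 stood at 6.33, 6.22, 5.92, 6.13 and 6.40 on the overfed arrays, against 7.18, 7.31, 7.35 and 6.14 on the regular arrays. The aryl hydrocarbon receptor gene ahr1a stood at 5.51, 5.59, 5.57, 5.48 and 5.76 on the overfed arrays, against 6.64, 6.58, 6.38 and 5.43 on the regular arrays. In both, array 9 lay with the overfed arrays. They differed by -1.08 (adjusted p = 0.00147) and -0.95 (adjusted p = 0.0023) without it, against -0.80 (adjusted p = 0.0529) and -0.68 (adjusted p = 0.09) with it. The elongation factor gene ell (2.14, against 1.65), the chromatin gene rad54l2 (1.73, against 1.11), the endoplasmic reticulum gene ncln (0.88, against 0.63) and the outer-membrane channel gene vdac1 (-0.60, against -0.44) were added in the same way.

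Of the 24 genes in which array 9 was most extreme, 1 was called with all arrays, against 5.16% of all genes. They were picked for the deviation of array 9, which adds to the spread in the same fit. The count is therefore set in part by choice. Array 9 stood at 14.56 for vtg2, where the other regular arrays averaged 5.22. It stood at 12.58 for the insulin gene ins (mean of the others 6.26), 11.58 for the somatostatin gene sst1.1 (5.76), 10.40 for the intestinal amino acid transporter gene slc6a19b (4.73) and 10.87 for the glucagon gene gcga (5.58). The levels of the other arrays are near or below the array medians of 5.955 to 6.125, so no fold is given. None of these had a diet difference past the threshold in either fit. It lay 21.5-fold below for cyp2k22, a liver cytochrome, which stood at 12.53, 12.83, 12.85, 12.87 and 12.44 on the overfed arrays, against 11.29, 11.85, 11.99 and 7.29 on the regular arrays. All overfed arrays were above all regular arrays, yet this gene passed only without array 9 (0.99, adjusted p = 0.0102, against 2.1 ± 0.73, adjusted p = 0.126), with a smaller difference. The glycerol channel gene aqp9b stood at 4.30, 3.08, 3.01, 3.37 and 5.22 on the overfed arrays, against 7.76, 6.42, 7.14 and 3.39 on the regular arrays. Array 9 lay with the overfed arrays, and the gene passed only without it (-3.31, adjusted p = 0.00492, against -2.38, adjusted p = 0.1). Array 9 and overfed arrays 3, 4 and 6 were below 4, the level used to filter probe sets, so the size of this difference is uncertain. The steroid dehydrogenase gene hsd17b3 was the only one of the 24 most extreme genes called with all arrays, with levels of 8.22, 9.43, 9.08, 7.46 and 8.14 on the overfed arrays, against 4.70, 7.29, 6.17 and 2.77 on the regular arrays. Its groups were apart, with array 9 the lowest and below 4, so the size of its difference is uncertain too. The difference was 2.41 (adjusted p = 0.0267) without array 9 and 3.23 ± 0.75 (adjusted p = 0.0287) with it, and failed without overfed array 3 or 4 or regular array 2, at most at 0.0839 without regular array 2.

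Zebrafish carry many duplicated genes. Pairs were formed here by symbol alone: names that differ only in a final a or b, or in the number after a shared stem and hyphen. Such pairs, cebpa and cebpb among them, were not checked to be zebrafish duplicates. Of the 1304 members of the 652 measured pairs, 103 (7.9%) were called, against 5.16% of all genes. No background was worked out for pairs, so the pair counts here and below are description only. Both members passed in 10 pairs, 6 in the same and 4 in opposite directions. The same direction was seen for junba and junbb, for cisha and cishb, and for the cell cycle genes cdca7a (-2.04 ± 0.39) and cdca7b (-0.38 ± 0.08), of which cdca7b failed without regular array 2, 5 or 6, at most at an adjusted p of 0.0603. It was also seen for the polyamine regulators oaz1a (0.58) and oaz1b (0.62), the phosphatase genes ptpn11a (0.48) and ptpn11b (1.39), and ppdpfa (2.24) and ppdpfb (0.91). Opposite directions were seen for the circadian repressor genes nfil3-5 and nfil3-6. The level of nfil3-5 was 9.14, 8.82, 9.20, 10.64 and 9.29 on the overfed arrays, against 5.87, 6.73, 6.96 and 8.04 on the regular arrays. That of nfil3-6 was 9.73, 9.01, 9.82, 9.94 and 9.69 on the overfed arrays, against 11.01, 11.26, 11.75 and 10.62 on the regular arrays. No overlap was seen in either, and array 9 was the regular array nearest to the overfed ones in both. The differences were 2.52 ± 0.44 (adjusted p = 0.00998) and -1.52 ± 0.27 (adjusted p = 0.0105), and both passed in all 9 fits. Another nfil3-6 probe set showed no fall (0.0085, adjusted p = 0.994), so the split holds for the probe sets named.

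The cell survival genes mcl1a and mcl1b split as well. For mcl1b the level was 9.99, 9.72, 10.75, 10.96 and 9.50 on the overfed arrays, against 8.02, 9.27, 8.55 and 8.30 on the regular arrays, and for mcl1a it was 7.56, 7.81, 7.56, 7.62 and 7.48 on the overfed arrays, against 8.57, 8.52, 8.35 and 8.09 on the regular arrays. Neither overlapped, and they differed by 1.65 ± 0.32 and -0.78 ± 0.15, each with an adjusted p of 0.0139. The cristae organising genes chchd3b (1.77 ± 0.40, adjusted p = 0.0264) and chchd3a (-0.74 ± 0.15, adjusted p = 0.0187) and the calponin genes cnn3a (0.75 ± 0.16, adjusted p = 0.0211) and cnn3b (-0.47 ± 0.12, adjusted p = 0.043) were the other opposite pairs. Their calls were less stable, at most 0.0819 for chchd3b and 0.0614 for chchd3a without regular array 5, 0.0627 for cnn3a without overfed array 6 and 0.124 for cnn3b without regular array 2. Without array 9, 19 symbol pairs had both members past the threshold, 8 of them in opposite directions, cebpa with cebpb and chka with chkb included. Probe sets of near-identical copies can share target sequence, so the split within a pair is less certain than the difference of either probe set.

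Of 1498 genes with several probe sets, 115 had at least 1 that passed, 27 had 2 or more, and in 2 genes probe sets passed in opposite directions. Several probe sets give a gene several chances to pass, so the 5.16% of all genes, with 1 each, is no background for these counts. For hnrnpa0b, 2 probe sets were higher (1.19 ± 0.22, adjusted p = 0.0133, and 1.04 ± 0.18, adjusted p = 0.0108) and another was lower, with levels of 5.71, 5.46, 5.81, 5.87 and 5.52 on the overfed arrays, against 7.28, 6.85, 7.05 and 6.75 on the regular arrays (-1.31 ± 0.22, adjusted p = 0.00813). All 3 passed in each of the 9 fits. For tp53bp2a, 1 probe set was higher (0.44 ± 0.09, adjusted p = 0.0153; 0.0711 after quantile normalization) and another lower (-0.39 ± 0.10, adjusted p = 0.0461, at most 0.121 without overfed array 6). A gene's direction is therefore that of the probe set named, and 34 of the 115 genes had a probe set with a difference of the opposite sign.

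The ahcy+/- arrays of the same tanks, 2 overfed and 3 regular, entered the choice of the 681 probe sets through the shared estimate of spread and the low-value filter. There, 672 of the 681 (98.7%) had a difference of the same sign, against 75% of all tested probe sets. The median ratio of the ahcy+/- to the ahcy+/+ difference was 0.806, against 0.854 over all tested probe sets. The 681 were picked for their ahcy+/+ difference, which in part sets a smaller ahcy+/- difference by choice. For egln3 the difference was 3.72 in ahcy+/- and 3.72 in ahcy+/+ livers, for p4ha1b 2.23 and 2.13, and for mycb -4.11 and -3.33. It was 0.24 and 1.82 for higd1a, 0.44 and 2.01 for eepd1, and -0.12 and -0.78 for mcl1a. None of these contrasts between genotypes passed: the test of the diet difference between genotypes called 0 probe sets in limma after adjustment, and 289 (1.91%) at an unadjusted p under 0.05.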

How the data were processed

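The deposited values of each array are on a log2 scale, which was read from their range of 0.464 to 14.74 because no source used here states it. GCRMA and Partek are named, with no version, role or order, per the submitters' processing notes. Of 15617 probe sets, 115 control probe sets were left out, and 15134 were tested that exceeded 4 on at least 2 arrays. Probe sets were named through the platform annotation: 10795 carry 1 gene, 135 several and 4572 none, and those with several or none are not named. All 14 arrays entered 1 fit of 4 group means in limma 3.58.1 (R 4.3.3), without trend or robust options. The contrast was overfed minus regular ahcy+/+, with Benjamini-Hochberg adjustment over all tested probe sets at 0.05. Lists took 1 probe set per gene, the one with the highest mean. Figures used matplotlib 3.10.9 in Python 3.11.15. The fit was tested on simulated data.

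The genes named are the 30 with the largest differences in each direction, called list members and members called without regular array 9. Also named are the calls that shifted most and those added most strongly without that array, and the genes in which it was most extreme. The rest are pairs by symbol with both members called and the 10 smallest p-values in each direction. Members and lists were chosen with earlier results of these data known. Alternatives were other filters, scalings, weights, covariates, a replicate block and leaving out each array. Promoter motifs were not used here. Same-numbered arrays of different groups, ahcy+/- included, were checked for pairing, with no shared origin given by the labels.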

Additional observations from a re-analysis of the deposited data

Results flagged for a closer look

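In 19 of 128 checks of a group, 1 array lay far from the others of its group by Dixon's test. Chance flags about 1 in 20 groups. That share does not apply to array 9 here, because some of the genes checked were named for its level or for its effect on their call. Regular array 9 was that array in 11 checks and an overfed array in 8. No cause was tested.

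Among overfed arrays, array 7 was low in hif1an (6.89, the others 7.82 to 8.08), slc13a5a (9.43, the others 10.18 to 10.33) and npl (7.82, the others 8.6 to 8.8). Array 6 was high in nfil3-5 (10.64, the others 8.82 to 9.29), and array 3 low in nfil3-6 (9.01, the others 9.69 to 9.94). Array 2 was low in igf2b (6.22, the others 7.59 to 7.94) and in the hepatocyte marker mean (12.87, the others 13.05 to 13.1), and high in vitellogenin (9.28, the others 6.31 to 7.15).

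Among regular arrays, array 9 was high in plod1a (6.19, the others 5.89 to 5.92), angptl4 (10.35, the others 5.92 to 6.2), klf11b (8.56, the others 5.25 to 5.48), sec61a1b (9.45, the others 8.32 to 8.44), yars1 (7.99, the others 7.29 to 7.39) and hspa4a (8.57, the others 7.52 to 7.65). It was also high in the mean of ovary and oestrogen markers (8.02, the others 5.93 to 5.95) and in vitellogenin (13.9, the others 5.37 to 5.56). It was low in mycb (8.46, the others 10.54 to 10.92), bckdk (8.65, the others 9.33 to 9.36) and cyp2k22 (7.29, the others 11.29 to 11.99).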

How the results depend on the processing

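The main count of 681 probe sets, 465 higher and 216 lower, changed by more than 1.5 times under some alternatives. Leaving out 1 array gave 253 to 1341 in all, 175 to 715 higher and 78 to 626 lower, the highest without regular array 9 and the lowest without overfed array 6. Array quality weights gave 1949 (1066 higher, 883 lower), with regular array 9 weighted at 0.244, and 2070 (1072 and 998) with that array left out as well. With vitellogenin as a covariate there were 1090, 435 of them lower. With the replicate number as a block, 6 passed (4 higher, 2 lower), and this pairing is not used. The labels give same-numbered arrays no shared origin. Deviations of same-numbered arrays correlated at -0.0837 and 0.123 across the diets of ahcy+/+ fish (numbers 2 and 6). Between overfed ahcy+/+ and regular-diet ahcy+/- arrays (numbers 3 and 7) they correlated at 0.0984 and 0.162. Between overfed ahcy+/+ and overfed ahcy+/- arrays (number 4) they correlated at -0.23. So few arrays cannot exclude a pairing by number. Counts under the other filters, quantile or median scaling, trend and robust options, wild-type arrays alone, the intestine and pancreas covariates and 1 probe set per gene ran from 499 to 795. Similar totals hid turnover: of 186 named probe sets called, 56 lost their call with the intestine and pancreas covariates, 49 after quantile normalization, 46 with wild-type arrays alone and 18 with trend and robust options. The genotype contrast of diet called 1 probe set without the low-value filter and 0 otherwise. Pairs with both members called numbered 10, and 19 without regular array 9. The difference of cyp2k6, -0.08 with all arrays, ranged from -0.44 (without regular array 2) to 0.85 (without regular array 9) when 1 array was left out, and was 0.84 with array weights and without array 9; that of hsd3b7, 0.07, was -0.70 with array weights and without array 9. The causes were not tested. Of 882 list medians recomputed, 27 moved by more than the spread between arrays. The number of arrays and the 1 tank per diet limit the precision.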
